A study of Mus musculus with 16 samples.

Results

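Untreated mouse embryoid bodies (EBs) were compared between day 12 and day 8 of culture, over 22180 genes. The comparison takes 4 of the 16 arrays of the study, 2 at each day, chosen by their titles as control EBs of day 8 or day 12. The EBs were floating aggregates of an embryonic stem cell line named iGPA-Myo7a:mVenus. In this line doxycycline (Dox) switches on the hair cell transcription factors Gfi1, Pou4f3 and Atoh1, and the Myo7a promoter drives the fluorescent protein mVenus. The 4 control arrays share that line and the serum-containing medium; they received no Dox and no retinoic acid (RA), and the whole aggregate was lysed without a sort. The other 12 arrays hold cells of the same line sorted for mVenus, called induced hair cell-like cells (iHCs), after treatment from day 4 with Dox or with Dox and RA, with 3 arrays for each treatment at day 8 and day 12. The submitters describe the replicates as biological, from independent RNA preparations.

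Embryonic stem cells that aggregate without signals that hold them pluripotent form derivatives of all germ layers in a loosely embryo-like order. Primitive erythrocytes, endothelium and beating cardiomyocytes are early mesodermal products of such cultures, and macrophages, fibroblast-like stroma and hepatic-type cells are among the later ones. Primitive red cells carry embryonic globins, and the fibroblast-like stroma secretes collagens and the enzymes and small proteoglycans that order them.

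The values are log2 RMA values from Affymetrix Mouse Gene 2.1 ST arrays. The correlation over genes was 0.992 between the day 8 replicates and 0.994 between the day 12 replicates, and 0.978 to 0.989 between arrays of different days. The median over genes of the standard deviation between replicates was 0.119 for control EBs. Within pairs the day 8 arrays differed more: 78.0% of genes had a standard deviation below 0.2 at day 8 and 84.4% at day 12. A gene was called when limma gave an adjusted p under 0.05 over all genes. Each difference below is day 12 minus day 8 on the log2 scale, from 2 arrays a day, with limma's standard error after ±. That error rests on the spread within all groups of the study, the sorted iHC groups included, and not on the control EBs alone. Each p was adjusted over all genes. RMA values of different genes cannot be ranked against each other, so levels are compared within a gene only.

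Between day 8 and day 12, 831 genes changed, which is 3.75% of the genes tested. Of these, 516 rose (2.33% of all genes) and 315 fell (1.42%), and 307 of the 831 changed at least 2-fold (194 higher, 113 lower). The median difference of all genes was 0.002. In all 831 the arrays of the days did not overlap, but such separation alone was common, with day 12 above day 8 for 23.4% of all genes and below it for 22.1%. The count fell to 317 without day 8 replicate 2 and to 384 without day 12 replicate 1, while 250 of the 831 genes passed in each of the 4 fits that left out 1 control EB array. A call is described below as kept when it passed in all of these 4 fits. Each count of called list members below is to be read beside the 2.33% of all genes that rose and the 1.42% that fell.

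**Figure D1:**
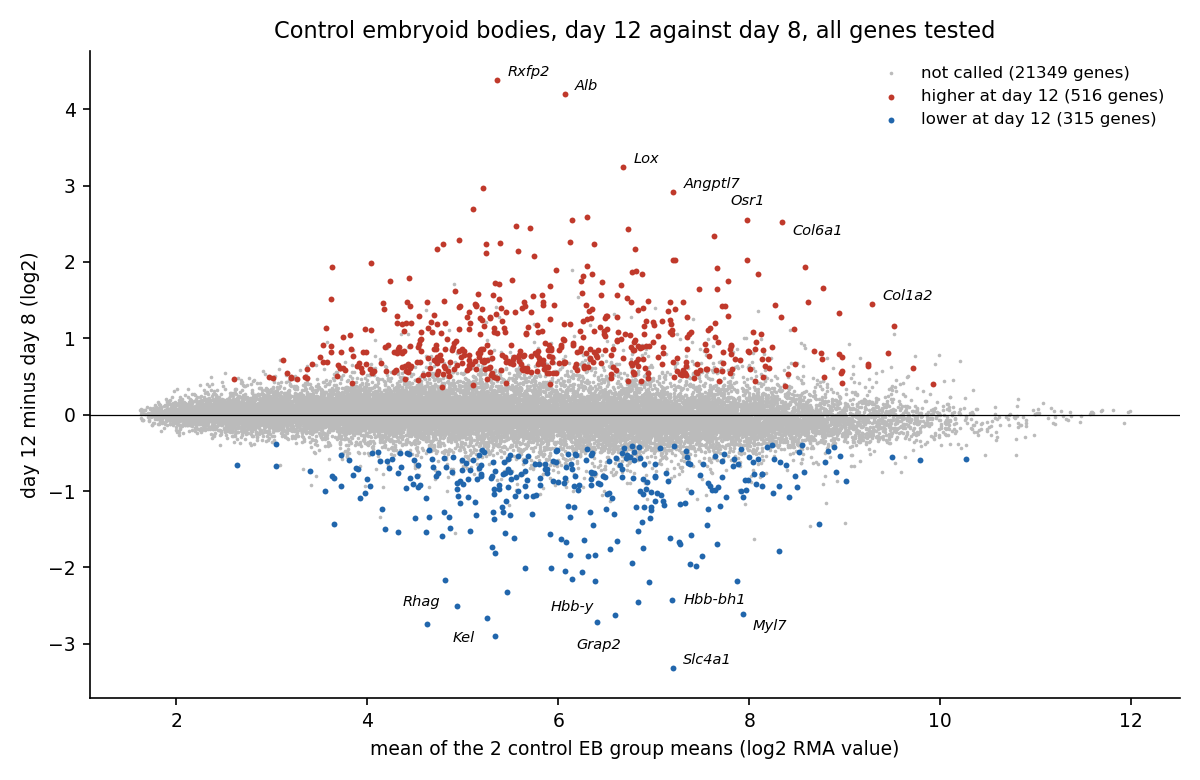
Each point is 1 of 22180 genes, with the mean of the 2 control EB group means on the x axis and the difference between the days on the y axis, both in log2 units. The 516 red genes were called higher at day 12 and the 315 blue genes lower; Rxfp2 and Alb stand at the top and Slc4a1 at the bottom.

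The largest falls were in genes of red cells. Of 26 listed red cell genes, 16 had an entry that could be used, and the other 10, among them the adult globins, were not analysed here. Of the 16, 14 fell, against 1.42% of all genes, and the median difference was -1.56. Slc4a1, the band 3 anion exchanger of the erythrocyte membrane, measured 8.46 and 9.25 at day 8 and 5.46 and 5.61 at day 12. It fell by 3.32 ± 0.44, or 10.0-fold (adjusted p = 0.00036). Both day 8 arrays lay far above both day 12 arrays, with replicate 2 the higher of the day 8 pair.

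Embryonic globins fell together with the membrane genes. Hbb-y, the embryonic epsilon-type globin, read 7.67 and 8.14 at day 8 against 5.34 and 5.22 at day 12, a difference of -2.62 ± 0.22 (adjusted p = 6.3e-06). Hbb-bh1, the other embryonic beta-type globin, read 8.25 and 8.54 against 5.87 and 6.08, a difference of -2.43 ± 0.19 (adjusted p = 3.7e-06). Hba-x, the embryonic alpha-type globin, went from 6.24 and 6.45 to 4.69 and 4.78, a difference of -1.61 ± 0.25 (adjusted p = 0.0015). Globin genes are similar in sequence and probes may read relatives, so the share of each globin in these values is uncertain; the calls of all 3 were kept.

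The Rh-associated glycoprotein gene Rhag read 5.58 and 6.80 at day 8 and 3.57 and 3.81 at day 12 (-2.50 ± 0.27, adjusted p = 6.5e-05). Ermap, an erythroid membrane protein, fell by 2.32 ± 0.12, from 6.53 and 6.71 to 4.34 and 4.26 (adjusted p = 5.2e-08). The transcription factors that run the erythroid programme fell as well: Klf1 went from 5.35 and 6.32 to 4.20 and 4.44 (-1.52 ± 0.23, adjusted p = 0.0014) and Gata1 from 6.35 and 6.41 to 5.13 and 5.02 (-1.30 ± 0.13, adjusted p = 3.3e-05). Falls were also called for Epb42 (-1.81), Car2 (-1.78), Fech (-0.99), Tfrc (-0.80), Nfe2 (-0.80) and the erythropoietin receptor gene Epor (-0.76). Among these, the call of Epb42 alone was kept. Without day 8 replicate 2 the difference was -0.45 for Epor and -0.58 for Tfrc. Ank1 (-0.73, adjusted p = 0.084) and Hemgn (-0.57, adjusted p = 0.18) did not pass. Of the 14 calls 9 were kept in all 4 fits, and the list count was lowest, at 9, without day 8 replicate 2. The EBs were lysed whole, so fewer cells of a type and less RNA per cell cannot be told apart here or in any result below.

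Kel, the Kell blood group protein, went from 6.50 and 7.07 to 3.89 and 3.89 (-2.89 ± 0.33, adjusted p = 9.9e-05). Sptb, erythroid beta-spectrin, went from 6.99 and 7.58 to 5.22 and 5.21 (-2.07 ± 0.20, adjusted p = 2.6e-05). The mitochondrial iron importer of erythroblasts, Slc25a37, went from 8.65 and 9.28 to 6.71 and 6.85 (-2.18 ± 0.24, adjusted p = 8.3e-05). In lists drawn up after the values had been seen, 9 of 15 red cell membrane genes fell (median -0.89) and 7 of 13 genes of haem synthesis and mitochondrial iron (median -0.54; 2 of 13 without day 8 replicate 2, and 4 of 13 with day 12 replicate 1 or day 12 replicate 2 left out). Mfsd2b, the sphingosine-1-phosphate exporter of red cells and platelets, fell by 2.01 ± 0.22 (adjusted p = 8.2e-05).

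For the red cell genes that fell, the promoters of Epor, whose call was not kept, and Epb42 are shown because they hold AGATAA. This is only a part of the letters that erythroid GATA factors are known to bind. Other forms, such as TGATAA, were not searched and occur in windows not shown, among them that of Hba-x. RefSeq windows of 250 bases before the start of transcription were at hand for 10 of the 16 red cell genes and were searched on both strands for AGATAA and for CCNCNCCC, the latter the type of box that KLF factors bind. The capitals mark AGATAA (or TTATCT on the other strand) and CCNCNCCC (or GGGNGNGG), and neighbouring matches run together.
Epor, chr9:21963577-21963826, minus strand: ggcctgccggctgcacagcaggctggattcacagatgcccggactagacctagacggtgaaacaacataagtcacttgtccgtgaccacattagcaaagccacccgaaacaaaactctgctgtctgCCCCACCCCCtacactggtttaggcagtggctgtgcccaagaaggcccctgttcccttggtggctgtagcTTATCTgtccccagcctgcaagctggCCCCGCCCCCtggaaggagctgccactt
Epb42, chr2:121036878-121037127, minus strand: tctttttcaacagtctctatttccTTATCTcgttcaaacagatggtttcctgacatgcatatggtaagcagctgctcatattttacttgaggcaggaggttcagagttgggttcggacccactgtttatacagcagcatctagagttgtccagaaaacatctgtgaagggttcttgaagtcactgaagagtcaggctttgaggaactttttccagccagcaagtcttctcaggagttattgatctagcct
Both positions are on GRCm38.p6 and the letters run 5′ to 3′ on the gene's strand. AGATAA was found in 2 of the 10 genes and in 8.78% of 20611 windows of the same length, and CCNCNCCC in 5 of the 10 genes and in 53.7% of the windows. A match is a description of the letters and not a measured site.

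Platelet and megakaryocyte genes fell with the red cell genes, with which they share a progenitor in the embryo. In the list of mast cell, megakaryocyte and blood progenitor genes 6 of 18 fell and 0 rose; they were Gfi1b, Gp9, Tal1, Itga2b, Ppbp and Treml1, which are genes of platelets or of the erythroid and megakaryocytic lineage. The median of that list was -0.05. Gfi1b, a repressor needed for red cells and platelets, went from 6.98 and 7.63 to 5.34 and 5.59 (-1.84 ± 0.20, adjusted p = 5.3e-05). Tal1, the factor that founds blood and part of endothelium, went from 5.98 and 6.32 to 4.91 and 4.77 (-1.31 ± 0.18, adjusted p = 0.00047). Itga2b, the alpha IIb integrin of platelets, read 6.77 and 6.62 and then 5.71 and 5.30 (-1.19 ± 0.19, adjusted p = 0.0015). Runx1 (0.44, adjusted p = 0.33), Lmo2 (-0.28, adjusted p = 0.55) and Myb (0.14, adjusted p = 0.76), factors of blood progenitors, did not pass.

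A longer list of platelet genes, drawn up after the values had been seen, held 19 falls among 25 (median -0.95; 12 of 25 without day 12 replicate 1). Grap2, a signalling adaptor, read 7.67 and 7.86 at day 8 and 5.05 and 5.06 at day 12 (-2.71 ± 0.22, adjusted p = 5.9e-06). The vesicular monoamine transporter Slc18a2 read 8.10 and 8.01 and then 5.59 and 5.62 (-2.45 ± 0.13, adjusted p = 5.2e-08). In both genes the replicates of a day lay close together and the days did not overlap. Tubb1, the platelet beta-tubulin (-2.15), Plek (-1.95), Fermt3 (-1.45), the platelet integrin gene Itgb3 (-1.20) and P2rx1 (-1.28) also fell, and Pf4 (-0.17, adjusted p = 0.75) did not pass.

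**Figure D2:**
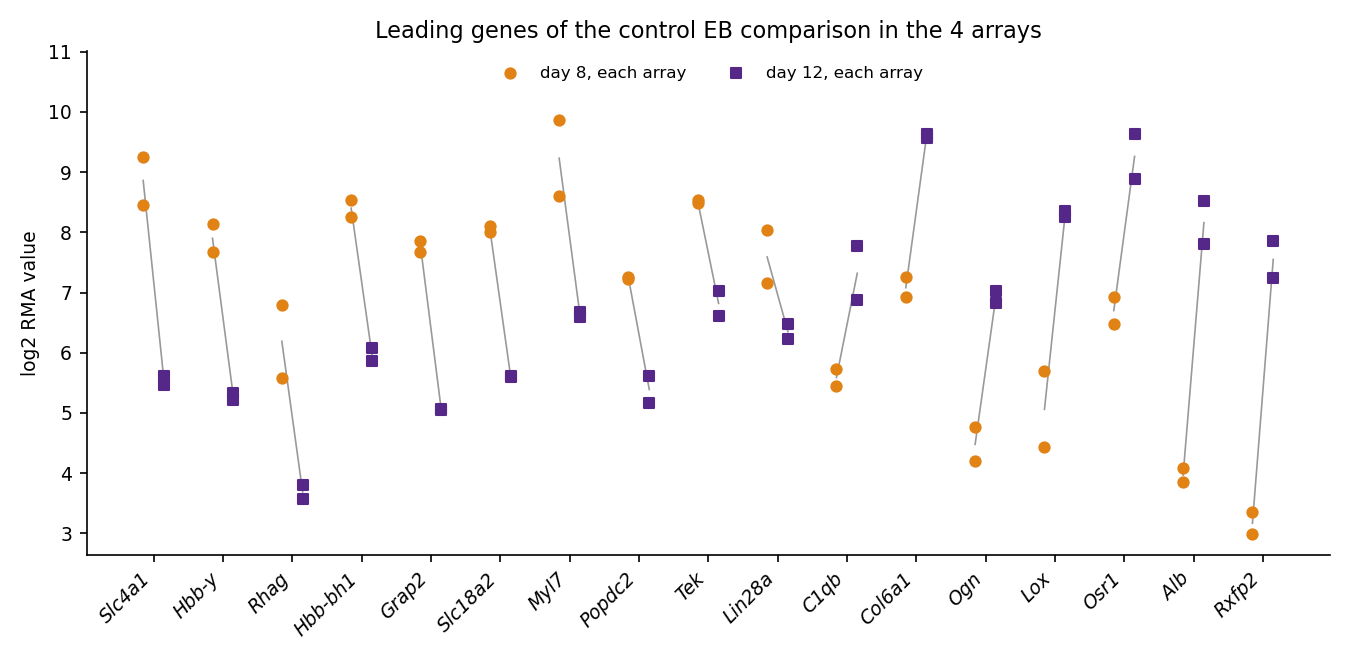
Log2 RMA values of 17 genes on the 4 control EB arrays, with circles for the 2 day 8 arrays, squares for the 2 day 12 arrays and a line between the group means. In none of the 17 do circles and squares overlap; Myl7, Rhag and Lin28a have wide day 8 pairs.

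Cardiac muscle genes were lower at day 12. Of 34 measured, 8 fell, against 1.42% of all genes, and 0 rose, and the list median was -0.65. The atrial myosin light chain Myl7 read 8.60 and 9.87 at day 8 and 6.59 and 6.67 at day 12 (-2.60 ± 0.47, adjusted p = 0.0043). The ventricular and embryonic myosin heavy chain Myh7 went from 5.99 and 6.45 to 4.55 and 4.80 (-1.55 ± 0.18, adjusted p = 0.00011). Popdc2, a membrane protein of cardiomyocytes, read 7.25 and 7.23 and then 5.17 and 5.61 (-1.86 ± 0.26, adjusted p = 0.00055). The giant sarcomere protein titin (Ttn, -2.01), cardiac actin (Actc1, -1.86), the sarcomere assembly factor Smyd1 (-1.48), Myom1 (-1.34) and the early heart factor Hand1 (-0.99) were also called. Nkx2-5 (-0.66, adjusted p = 0.082), Tnnc1 (-0.68, adjusted p = 0.079) and Mybpc3 (-0.91, adjusted p = 0.058) did not pass.

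Day 8 replicate 2 held more of these transcripts than replicate 1: the mean level of the cardiac list was 5.92 and 6.38 on the day 8 arrays and 5.43 and 5.55 on the day 12 arrays. The number of cardiac calls moved with the array left out, with 15 without day 8 replicate 1, 3 without day 8 replicate 2 and 4 without day 12 replicate 1. Without day 8 replicate 2 the Myl7 difference was -1.97 (adjusted p = 0.096) and that of Ttn was -1.30 (adjusted p = 0.13), while Popdc2, Myh7 and Smyd1 kept their calls in all 4 fits. Of 24 skeletal muscle genes 0 were called by limma (2 at an unadjusted p under 0.05; median 0.05). In the smooth muscle list 1 of 12 was called, Mylk, which rose by 0.78 (adjusted p = 0.030; adjusted p = 0.41 without day 12 replicate 1); the list median was -0.29.

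Nearly all endothelial genes had lower values at day 12, although few passed singly in the fit of all arrays. Of 27 measured, 26 had a negative difference and the median was -0.68. By limma 8 fell, against 1.42% of all genes, and 0 rose. The list also fell in part in Dox iHCs, with 9 of 27 called lower (median -0.50), against 1034 of all 22180 genes. In Dox+RA iHCs 0 of 27 were called (median -0.23). The difference from the time change in control EBs was called for 1 of 27 with Dox iHCs and for 2 with Dox+RA iHCs. In control EBs the mean level of the list was 6.79 and 6.79 at day 8 and 6.10 and 6.12 at day 12. Between replicates the standard deviation of this mean was 0.0 at day 8 and 0.02 at day 12 in control EBs. It was 0.19 and 0.21 in Dox iHCs and 0.27 and 0.4 in Dox+RA iHCs. The error of limma uses the spread of each gene within all groups, and not that of this mean. For single genes the standard deviation of the day 8 control EB pair was 0.36 for Stab2 and 0.03 for Tek. Whether the spread of the iHCs lowered the number of calls was not tested. Stab2, a scavenger receptor of sinusoidal endothelium, went from 5.85 and 5.34 to 4.43 and 4.60 (-1.08 ± 0.17, adjusted p = 0.0013). Plvap, the diaphragm protein of fenestrated vessels, went from 7.10 and 6.95 to 6.01 and 5.97 (-1.03 ± 0.16, adjusted p = 0.0014). These 2 calls were kept. Tek, the angiopoietin receptor, read 8.49 and 8.53 and then 6.61 and 7.03 (-1.69 ± 0.40, adjusted p = 0.026), and without day 12 replicate 1 its adjusted p was 0.24. Tie1, Erg, Flt4, Lyve1 and Clec14a made up the rest. The list count was 3 without day 8 replicate 1, 2 without day 8 replicate 2, 2 without day 12 replicate 1 and 4 without day 12 replicate 2, while it was 14 in the fit of the control EB arrays alone.

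Of 33 measured genes of pluripotent cells 5 fell, against 1.42% of all genes, and 0 rose (median -0.21): Lin28a, Tfcp2l1, Lin28b, Trim71 and Dppa4. Tfcp2l1, a factor of the naive state, went from 7.32 and 7.51 to 5.87 and 6.55 (-1.21 ± 0.20, adjusted p = 0.0026). Sox2 (-0.46, adjusted p = 0.24) and Sall4 (-0.88, adjusted p = 0.22) did not pass. The count was 2 without day 8 replicate 2, 2 without day 12 replicate 1, 3 without day 12 replicate 2 and 2 in the fit of the control EB arrays alone; Tfcp2l1 and Lin28b were kept. In the primitive streak list, with 21 measured, Foxh1 fell by 1.73 (adjusted p = 0.035) and Cdx2 by 0.97 (adjusted p = 0.016), and Gsc rose by 0.55 (adjusted p = 0.018). Foxh1 read 5.24 and 7.11 at day 8, with replicate 2 far the higher; without it the difference was -0.80 (adjusted p = 0.42), and those of Cdx2 and Gsc were -0.54 (adjusted p = 0.23) and 0.51 (adjusted p = 0.17). Without day 12 replicate 1 none of the 3 passed either, and the list median was -0.08.

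Lin28a, Lin28b and Trim71 belong to a circuit with the let-7 microRNAs. LIN28 proteins block the processing of let-7 precursors, and let-7 in turn represses the Lin28 and Trim71 transcripts. Lin28b read 5.51 and 5.90 at day 8 and 4.26 and 4.86 at day 12 (-1.14 ± 0.18, adjusted p = 0.0014). Lin28a read 7.16 and 8.03 and then 6.22 and 6.47 (-1.25 ± 0.26, adjusted p = 0.014; -0.81, adjusted p = 0.24 without day 8 replicate 2; adjusted p = 0.16 without day 12 replicate 1). Igdcc3 went from 8.46 and 8.42 to 6.16 and 6.74 (-1.99 ± 0.31, adjusted p = 0.0015). In a list of this circuit drawn up after the values had been seen, 6 of 14 fell (median -0.37; 3 of 14 without day 8 replicate 2, 4 without day 12 replicate 1), Arid3a and Arid3b among them.

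The array also carries probes for microRNA genes, which read the precursor or the transcript around it and not the mature microRNA. Of 479 such genes 13 rose and 2 fell, and the 3.13% called is close to the 3.75% of all genes. Mature sequences are shown for 6 of the 13 risen genes, those of let-7c, miR-99a, miR-100, miR-181a and miR-181b, and for both that fell, so that shared seeds can be seen; they were chosen after their values had been seen. The other 7 risen genes were Mir708 (1.42, adjusted p = 0.0045), Mir669g (0.91), Mir466g (0.76), Mir3080 (0.70), Mir615 (0.54), Mir669c (0.54) and Mir466b-3 (0.48). The seed (bases 2 to 8), which pairs with targets, is in capitals, and the sequences and positions are RefSeq's on GRCm38.p6.
let-7c-5p (Mirlet7c-1, chr16:77599672-77599693, plus strand): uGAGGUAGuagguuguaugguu
miR-99a-5p (Mir99a, chr16:77598940-77598961, plus strand): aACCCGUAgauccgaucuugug
miR-100-5p (Mir100, chr9:41531437-41531458, plus strand): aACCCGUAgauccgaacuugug
miR-181a-5p (Mir181a-2, chr2:38852741-38852763, plus strand): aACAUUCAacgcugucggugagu
miR-181b-5p (Mir181b-1, chr1:137966650-137966673, and Mir181b-2, chr2:38853845-38853868, plus strand): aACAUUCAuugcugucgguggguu
miR-290a-3p (Mir290a, chr7:3218674-3218697, plus strand): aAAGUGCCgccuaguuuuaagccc
miR-20a-5p (Mir20a, chr14:115044183-115044205, plus strand): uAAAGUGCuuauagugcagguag
miR-99a and miR-100 share a seed, and so do miR-181a and miR-181b; Mir181b-1 and Mir181b-2 give the same mature sequence from different chromosomes. Of the 479 microRNA genes, 420 had a mature sequence in the RefSeq table.

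Mir99a and Mirlet7c-1 lie 721 bases apart (start to start of their hairpins) inside the host transcript Mir99ahg, and all 3 rose. Mir99a went from 4.11 and 3.41 to 6.83 and 6.08 (2.70 ± 0.25, adjusted p = 1.9e-05), Mirlet7c-1 from 3.14 and 2.58 to 4.53 and 4.22 (1.52 ± 0.20, adjusted p = 0.00045) and Mir99ahg from 4.64 and 4.00 to 7.14 and 6.45 (2.47 ± 0.22, adjusted p = 1.1e-05). Mir100 rose by 1.10 ± 0.16 (adjusted p = 0.00079) and its host Mir100hg by 1.42 ± 0.22 (adjusted p = 0.0013). Of the miR-181 genes, Mir181b-1 went from 4.04 and 3.40 to 6.96 and 6.42 (2.97 ± 0.36, adjusted p = 0.00019), Mir181b-2 rose by 1.68 and Mir181a-2 by 1.19, and Mir181a-1 (0.24, adjusted p = 0.25), Mir181c (0.28, adjusted p = 0.40) and Mir181d (0.35, adjusted p = 0.53) did not pass. Nor did Mir99b (0.29, adjusted p = 0.47). These 8 calls, hosts included, were kept. The other let-7 genes did not pass, among them Mirlet7a-2 (0.54, adjusted p = 0.39) and Mirlet7e (0.55, adjusted p = 0.35), nor did Mir125b-1 (0.26, adjusted p = 0.50) and Mir125b-2 (0.19, adjusted p = 0.52) of the same host transcripts. On the control EB arrays Mir125b-1 read 2.13 to 2.61, Mir125b-2 2.13 to 2.50, Mir181a-1 1.82 to 2.12 and Mir302a 1.84 to 2.30. The lowest values of these arrays were 1.46 to 1.54, so the genes lay near the floor. A missing call there does not show that a gene stayed unchanged. Mir290a, of a cluster of pluripotent cells, fell by 0.66 (adjusted p = 0.023; adjusted p = 0.35 without day 8 replicate 2) and Mir20a by 0.73 (adjusted p = 0.048; adjusted p = 0.42 without day 12 replicate 1), and Mir302a (-0.02, adjusted p = 0.99) did not pass.

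**Figure D3:**
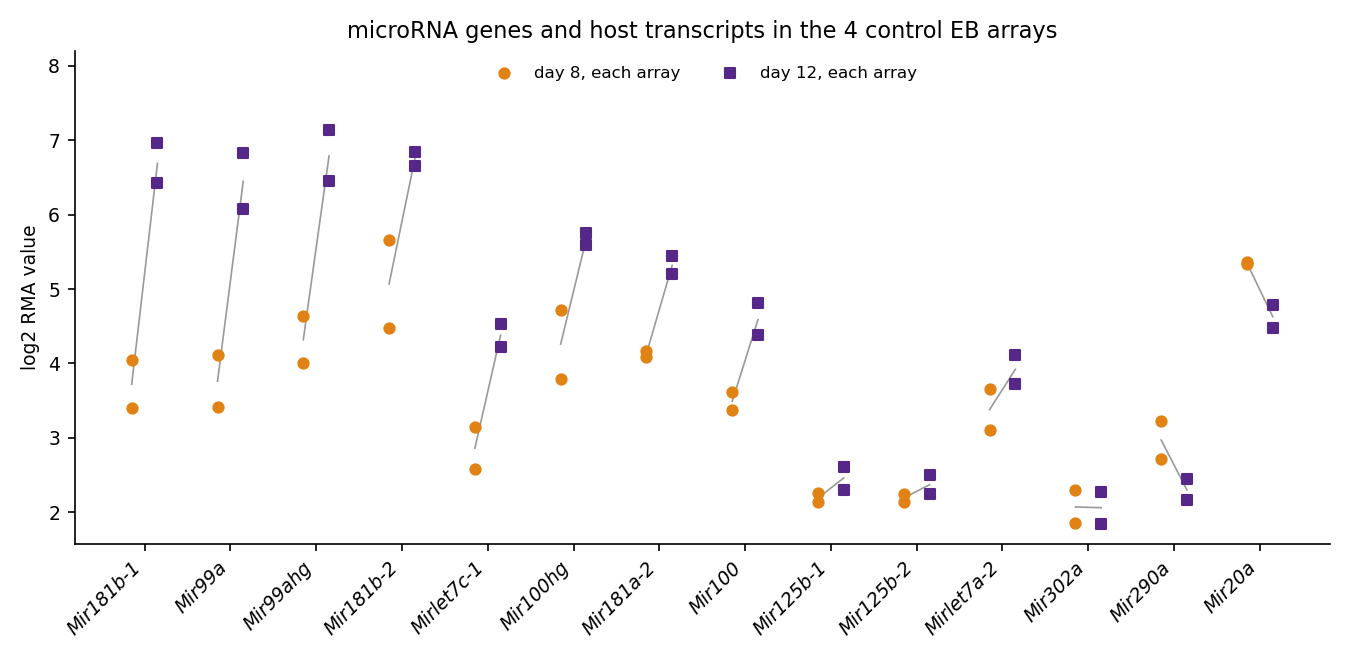
Log2 RMA values of 12 microRNA genes and 2 host transcripts on the 4 control EB arrays, with circles for day 8, squares for day 12 and a line between group means. Mir181b-1, Mir99a, Mir181b-2, Mirlet7c-1, Mir181a-2 and Mir100 rose with both hosts, while Mir125b-1, Mir125b-2, Mirlet7a-2 and Mir302a were not called. Of these, Mir125b-1, Mir125b-2 and Mir302a lay near the floor of the arrays.

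The list of mesenchyme and matrix genes held 7 of the 25 largest rises. Of 39 measured 19 rose, against 2.33% of all genes, and 0 fell; the list median was 0.77 and its mean level 6.96 and 6.62 at day 8 and 7.77 and 7.69 at day 12. Lox, the lysyl oxidase that crosslinks collagen and elastin, read 5.69 and 4.43 and then 8.25 and 8.36. It rose by 3.25 ± 0.28, or 9.50-fold (adjusted p = 8.5e-06). Osr1, a factor of intermediate mesoderm and connective tissue, read 6.93 and 6.48 and then 9.63 and 8.88 (2.55 ± 0.30, adjusted p = 0.00015). The day 8 values of Lox lay apart, yet the higher of them was well below both day 12 values.

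The 3 chains of collagen VI, the microfibrillar collagen around cells, rose together. Col6a1 went from 7.25 and 6.92 to 9.56 and 9.64 (2.52 ± 0.16, adjusted p = 4.8e-07), Col6a2 from 5.74 and 5.28 to 8.08 and 7.80 (2.43 ± 0.16, adjusted p = 5.8e-07) and Col6a3 from 5.72 and 5.72 to 7.94 and 7.86 (2.18 ± 0.14, adjusted p = 4.6e-07). Col12a1, a collagen that decorates fibrils, rose by 2.23 ± 0.25 (adjusted p = 8.6e-05). The small leucine-rich proteoglycans, which shape collagen fibrils, rose by 2.44 (Ogn, osteoglycin), 1.93 (Aspn, asporin), 1.92 (Fmod, fibromodulin), 1.84 (Prelp), 1.64 (Bgn, biglycan) and 0.66 (Lum, lumican). Ogn read 4.76 and 4.20 and then 7.03 and 6.83 (± 0.17, adjusted p = 1.4e-06). Fmod read 7.50 and 5.92 at day 8, a wide pair, and 8.47 and 8.79 at day 12 (± 0.32, adjusted p = 0.0027). In a list of these families drawn up after the values had been seen 10 of 18 rose and 0 fell (median 1.35), and 8 of the 10 calls were kept.

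Of the fibrillar collagen genes named here, some rose and some did not pass. Col1a2, a chain of collagen I, went from 8.86 and 8.27 to 10.02 and 10.00 (1.44 ± 0.18, adjusted p = 0.0003). Col3a1 rose by 0.80 (adjusted p = 0.016) and Col5a2 by 0.97 (adjusted p = 0.0065), but without day 8 replicate 2 their adjusted p was 0.21 and 0.11. Col1a1 (0.78, adjusted p = 0.11) and the decorin gene Dcn (1.06, adjusted p = 0.073) did not pass. Tcf21, a factor of epicardial and visceral mesenchyme, went from 5.67 and 5.49 to 6.95 and 7.07 (1.43 ± 0.12, adjusted p = 8.5e-06), and Dpt, dermatopontin, rose by 1.13 ± 0.15 (adjusted p = 0.00035). Of the 19 calls 12 were kept, and the list count was 12 without day 8 replicate 2.

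Other lists near the matrix, all drawn up after the values had been seen, held rises as well. Among elastic fibre and collagen crosslinking genes 7 of 19 rose and all 19 differences were positive (median 0.63; 3 of 19 rose without day 8 replicate 2, and 3 without day 12 replicate 1). Among mesothelial and epicardial genes 6 of 18 rose (median 0.35; 4 of 18 without day 8 replicate 2 or day 12 replicate 1), with Efemp1 at 1.56 ± 0.24 (adjusted p = 0.0014), Muc16 at 1.04 ± 0.12 (adjusted p = 0.00017) and Wt1, the factor of mesothelium and kidney, at 1.18 ± 0.21 (adjusted p = 0.0035; adjusted p = 0.074 without day 8 replicate 2). Among genes of TGF-beta latency and response 9 of 18 rose and 1 fell (median 0.66; 5 rose without day 8 replicate 2, 6 with day 12 replicate 1 or day 12 replicate 2 left out, and 0 fell in any of these fits).

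**Figure D4:**
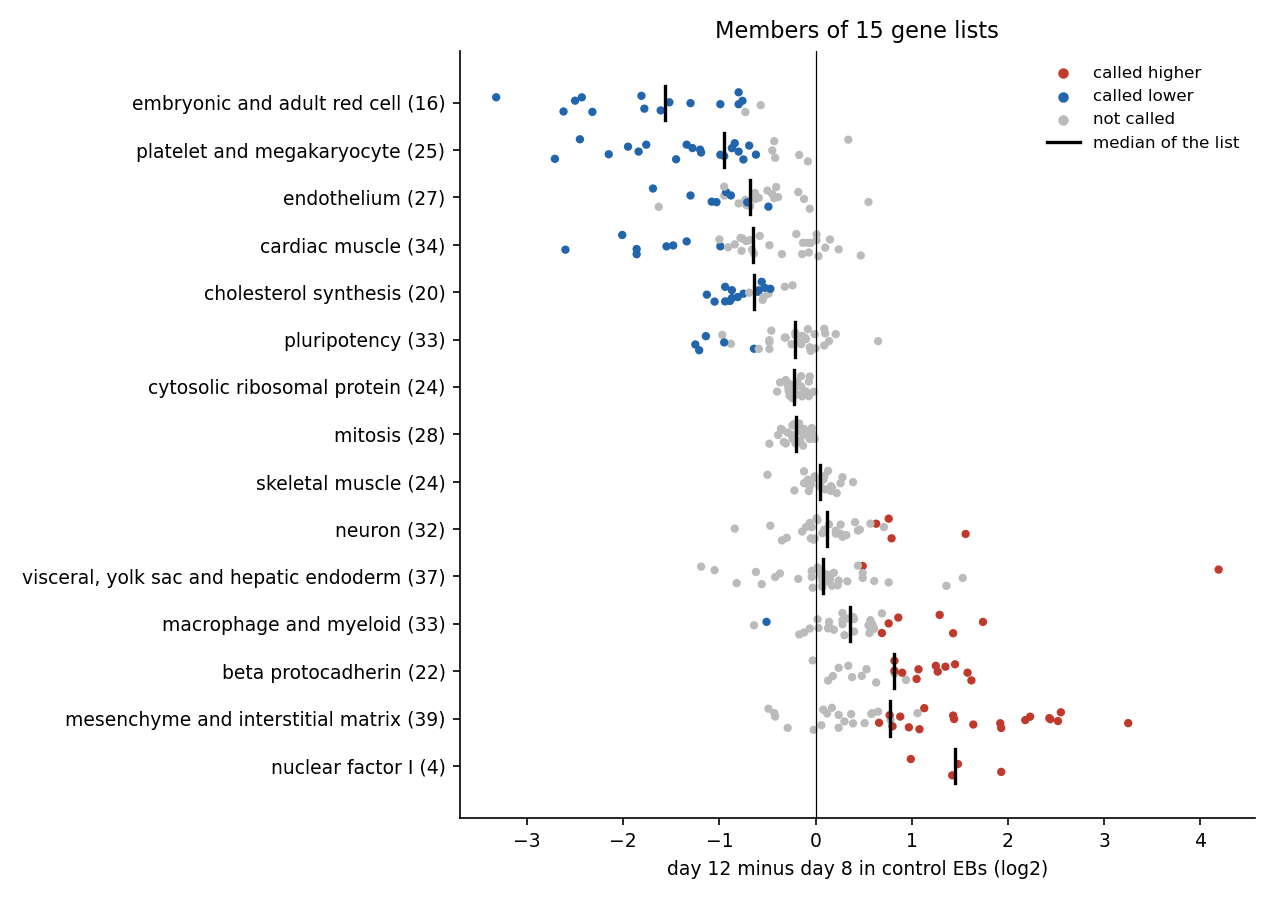
Each point is a gene of the list named on the y axis (number measured in brackets), at its day 12 minus day 8 difference in control EBs in log2 units, and the bar is the list median. Red cell, platelet, endothelial, cardiac and cholesterol genes lie to the left and mesenchymal, beta protocadherin and nuclear factor I genes to the right; mitosis and ribosomal protein genes hold no call.

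Basement membrane genes rose in part. Of 20 measured 4 rose and 0 fell (median 0.20): the laminin gene Lama1 (1.48, adjusted p = 0.0063) and the collagen IV genes Col4a1 (1.08, adjusted p = 0.0044), Col4a2 (0.89, adjusted p = 0.025) and Col4a6 (0.64, adjusted p = 0.027). Lama1 read 7.96 and 7.81 at day 8 and 8.95 and 9.76 at day 12. Day 12 replicate 2 was the higher array for all 4 genes, and without it 0 of the 20 were called; without day 8 replicate 2 the count was 1.

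Within the BMP and TGF-beta list Tgfb3, a TGF-beta of mesenchyme, had the largest rise, from 7.68 and 6.66 to 9.09 and 8.94 (1.85 ± 0.23, adjusted p = 0.00024). Bmp5 fell from 7.91 and 8.04 to 6.06 and 6.67 (-1.61 ± 0.27, adjusted p = 0.0026; adjusted p = 0.052 without day 12 replicate 1) and Bmp2 by 1.07 (adjusted p = 0.012; adjusted p = 0.20 without day 12 replicate 1 and 0.15 without day 8 replicate 2). In the BMP and TGF-beta list 6 of 31 rose (also Gdf10, Chrdl1, Fst, Gdf6 and Grem1) and 3 fell (also Tgfb1), with a median of 0.01. Tgfb3 and Gdf10 (1.06 ± 0.17, adjusted p = 0.0023) kept their calls. The list count was 3 higher without day 8 replicate 1, day 8 replicate 2 or day 12 replicate 1, and it was 1 lower without day 8 replicate 2 and 0 lower without day 12 replicate 1. Of 33 Wnt ligands and antagonists, Sfrp2 (1.29) and Wnt11 (0.40) rose and Wnt2 (-0.92) and Rspo2 (-0.75) fell, none kept in all 4 fits, with 0 of 33 called without day 12 replicate 1 (median of the list 0.11).

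In the retinoid list 4 of 19 rose and 0 fell (median 0.28). They were Dhrs3 (1.19, adjusted p = 0.039), which reduces retinal, the vitamin A transporter gene Stra6 (0.98, adjusted p = 0.047), Meis2 (0.62, adjusted p = 0.044) and the receptor gene Rxra (0.54, adjusted p = 0.037), all close to the threshold: without day 8 replicate 1, without day 8 replicate 2 or without day 12 replicate 1 the count was 0, and without day 12 replicate 2 it was 2. Aldh1a2, the enzyme that makes RA in mesoderm, read 5.28 and 5.12 at day 8 and 7.32 and 6.85 at day 12; its difference of 1.89 ± 0.53 did not pass (adjusted p = 0.071). No RA was added to these EBs.

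A minority of macrophage genes changed: of 33 measured 6 rose, 1 fell and 26 were not called (median 0.36), and 28 of the 33 differences were positive. C1qb, a complement chain made by macrophages, read 5.73 and 5.45 at day 8 and 6.87 and 7.78 at day 12 (1.74 ± 0.31, adjusted p = 0.0042). Adgre1, a surface receptor of macrophages, read 4.37 and 4.49 and then 5.37 and 6.35 (1.43 ± 0.24, adjusted p = 0.0030). Lyz2, macrophage lysozyme, read 3.71 and 3.63 and then 4.87 and 5.04 (1.29 ± 0.17, adjusted p = 0.00036). Ms4a7 (0.86), C1qc (0.69) and Csf1r (0.76), the receptor for the macrophage growth factor, were also called, and Mpo, a granule enzyme of neutrophil precursors, fell by 0.51 (adjusted p = 0.043; adjusted p = 0.37 without day 8 replicate 2). The list mean was 4.88 and 4.78 at day 8 and 5.02 and 5.44 at day 12, so day 12 replicate 2 was the higher. The number of rises was 10 without day 12 replicate 1, 3 without day 12 replicate 2, 3 without day 8 replicate 2 and 3 in the fit of the control EB arrays alone; Adgre1, Lyz2 and Ms4a7 were kept.

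Alb, the albumin gene of hepatocytes and yolk sac, read 4.09 and 3.85 at day 8 and 8.52 and 7.81 at day 12 (4.19 ± 0.18, 18.3-fold, adjusted p = 9.4e-09). No matching rise was called in most of its list: of 37 visceral, yolk sac and hepatic endoderm genes 2 rose, Alb and Fga (0.49, adjusted p = 0.037; adjusted p = 0.31 without day 12 replicate 2), and the median was 0.08. Afp read 7.39 and 7.45 and then 8.23 and 9.32 (1.36, adjusted p = 0.27), Ttr differed by -0.82 (adjusted p = 0.52) and Apoa1 differed by 0.07 (adjusted p = 0.95). The list count was 3 without day 12 replicate 1 and 1 without each other control array, where leaving out day 12 replicate 2 also gave 1 fall. Among 20 complement and coagulation genes 4 rose and 1 fell (median 0.09), led by tissue factor, F3 (1.65 ± 0.28, adjusted p = 0.0028), and with Serpind1 at 0.88 ± 0.14 (adjusted p = 0.0016). These 2 calls alone were kept. F5, coagulation factor V, fell by 0.83 (adjusted p = 0.0052), but its adjusted p was 0.087 without day 8 replicate 2 and 0.052 without day 12 replicate 1. The number of rises was 2 without day 8 replicate 2 or day 12 replicate 2.

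The largest rise was that of Rxfp2, the receptor for insulin-like peptide hormones, which read 3.35 and 2.99 at day 8 and 7.86 and 7.24 at day 12 (4.38 ± 0.26, 20.8-fold, adjusted p = 2.8e-07). Angptl7, a secreted angiopoietin-like protein, went from 6.08 and 5.41 to 8.87 and 8.46 (2.92 ± 0.19, adjusted p = 6e-07). Slitrk6, a neuronal transmembrane protein, rose by 2.59 ± 0.21 (adjusted p = 5.3e-06), and Srpx2, a secreted protein, by 2.55 ± 0.16 (adjusted p = 3.5e-07). The 25 largest rises also held Epha3 (2.34), Ifi27 (2.29), Gria1 (2.27), Sncaip (2.25), Clca3a1 (2.23), Serpinb9e (2.23), Gkn2 (2.14), Enpep (2.12), Srgn (2.08), Igfbp7 (2.03), Lrrc17 (2.02), Fabp4 (1.99) and Nfib (1.93). Of the 25, Srgn alone was not kept (adjusted p = 0.059 without day 8 replicate 2 and 0.089 without day 12 replicate 2). Serpinb9e and Clca3a1 have close relatives in the genome, so probes may read several copies.

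The 25 largest falls held, beside the blood and heart genes above, Hsd3b6 (-2.74 ± 0.34, adjusted p = 0.00021), a steroid dehydrogenase, Pkhd1l1 (-2.67 ± 0.22, adjusted p = 6.3e-06), Cited4 (-2.19), Ctse (-2.17), Tdo2 (-2.16), Reln (-2.05) and Slc22a23 (-1.95). Hsd3b6 read 5.40 and 6.59 at day 8 and 2.86 and 3.65 at day 12. Reln, reelin, read 6.72 and 7.47 and then 4.85 and 5.24, and its adjusted p was 0.27 without day 8 replicate 2. Hsd3b6 has close paralogues, and its level may include them.

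All 4 nuclear factor I genes, which encode transcription factors of late progenitors in several tissues, rose: Nfib by 1.93 ± 0.23 (adjusted p = 0.00013), Nfix by 1.48 ± 0.16 (adjusted p = 6.1e-05), Nfia by 1.42 ± 0.24 (adjusted p = 0.0028) and Nfic by 0.99 ± 0.17 (adjusted p = 0.0030). Nfib read 7.81 and 7.42 at day 8 and 9.74 and 9.35 at day 12, and Nfix 6.10 and 5.95 and then 7.59 and 7.41. Nfia and Nfic did not pass without day 8 replicate 2 (adjusted p = 0.051 and 0.063), nor did Nfic without day 12 replicate 1 (adjusted p = 0.052). The beta protocadherins are clustered cell adhesion genes that neurons and other cells use in combinations. Of 22 measured 11 rose and 0 fell, with a median of 0.82; Pcdhb13 rose by 1.62 (adjusted p = 0.0013) and Pcdhb14 by 1.58 (adjusted p = 0.00069). The count was 5 without day 8 replicate 2 and 5 without day 12 replicate 1. These genes are similar to each other, so probes may read several of them, and both families were singled out after their values had been seen.

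Cholesterol synthesis genes fell together, in a list drawn up after the values had been seen. Of 20 measured 14 fell and 0 rose, all 20 differences were negative, and the median was -0.64. Msmo1 read 7.60 and 7.72 at day 8 and 6.58 and 6.49 at day 12 (-1.13 ± 0.14, adjusted p = 0.0002). Lss, which makes lanosterol, read 7.79 and 8.23 and then 7.17 and 7.07 (-0.89 ± 0.12, adjusted p = 0.00054). Dhcr7, of the last step of the pathway, fell by 0.87 ± 0.14 (adjusted p = 0.0027) and Srebf2, the factor that switches the pathway on, by 0.47 ± 0.10 (adjusted p = 0.018). The list mean was 7.80 and 8.10 at day 8 and 7.26 and 7.26 at day 12. The count was 5 without day 8 replicate 2, 8 without day 12 replicate 1 and 7 without day 12 replicate 2, and Msmo1, Lbr, Lss, Dhcr7 and Fdft1 were kept.

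Neuronal genes gave 4 rises among 32 (median 0.12): Nefl, the light neurofilament (1.56 ± 0.38, adjusted p = 0.030), Tubb3 (0.79), Ncam1 (0.76) and Gad2 (0.63). Nefl read 4.28 and 4.78 and then 6.15 and 6.04. None of the 4 was kept; the count of rises was 1 without day 8 replicate 1, day 8 replicate 2 or day 12 replicate 1 and 0 without day 12 replicate 2. In the trophoblast list 3 of 11 rose (median 0.08; 1 of 11 without day 12 replicate 1), with Tpbpa, a marker of the spongiotrophoblast, at 1.19 ± 0.18 (adjusted p = 0.0012). Among adipocyte genes Fabp4 rose by 1.99 ± 0.18 (adjusted p = 1.1e-05) and Pparg by 0.67 (adjusted p = 0.037; adjusted p = 0.43 without day 8 replicate 2, 0.31 without day 12 replicate 1 and 0.083 without day 12 replicate 2), 2 of 13 with a median of 0.15. Of the Hox genes, Hoxd8 (-0.69, adjusted p = 0.015) and Hoxd9 (-0.60, adjusted p = 0.0063) fell among the 12 of paralogues 6 to 9 (median -0.02), with 0 called without day 8 replicate 2 and 1 without day 12 replicate 1. Hoxd11 rose (0.69 ± 0.11, adjusted p = 0.0016) among the 11 of paralogues 10 to 13 (median 0.37). Of the 13 of paralogues 1 to 5 limma called 0 (3 at an unadjusted p under 0.05; median 0.05).

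Single calls that were lost without day 8 replicate 2 were Emx2 among 24 neural progenitor genes (0.60, adjusted p = 0.031; 0.18 without it), Hapln1 among 23 cartilage and bone genes (-1.58, adjusted p = 0.036; 0.35), Vegfa among 25 hypoxia and glycolysis genes (0.67, adjusted p = 0.028; 0.19), Stra8 among 11 germ cell genes (0.51, adjusted p = 0.045; 0.34) and Rbm24 among 20 hair cell genes (-1.36, adjusted p = 0.015; 0.25). Krt15 among 27 surface epithelial genes (0.67, adjusted p = 0.011) was lost without day 12 replicate 2 (adjusted p = 0.11). Emx2, Vegfa and Stra8 passed in none of the 4 fits. The medians of these lists ran from -0.09 to 0.06. In a list of 20 to 27 genes a single call is close to the 3.75% called over all genes. Ifi27 was the single call among 21 interferon response genes (median 0.08) and was kept. Limma called 0 of 19 neural crest and glia genes (2 at an unadjusted p under 0.05; median 0.01).

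Lists of growth and stress genes held no call. Limma called 0 of 28 mitosis genes (2 at an unadjusted p under 0.05), 0 of 27 DNA replication genes (2), 0 of 24 cytosolic ribosomal protein genes (4), 0 of 7 cyclin-dependent kinase inhibitors (1), 0 of 26 imprinted genes (4) and 0 of 24 immediate early and stress genes (5). Their medians were -0.20, -0.31, -0.22, 0.01, -0.00 and -0.21. All 28 mitosis differences and all 24 ribosomal protein differences were negative, and the largest of the mitosis list was that of Aurka, from 7.96 and 8.32 to 7.52 and 7.78 (-0.48, adjusted p = 0.17). The mean mitosis level was 8.02 and 8.38 at day 8 and 8.03 and 7.98 at day 12, which overlap. Without day 8 replicate 1 the counts were 1 for mitosis, 2 for DNA replication, 2 for immediate early and 1 for imprinted genes, and without day 12 replicate 2 it was 1 for immediate early genes.

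The genes of the inducible line served as a check on the labels. Gfi1 read 6.72 and 6.47 at day 8 and 6.59 and 6.58 at day 12 (-0.01, adjusted p = 0.99), Pou4f3 read 5.13 and 5.82 and then 5.30 and 4.66 (-0.50, adjusted p = 0.28), Atoh1 read 4.71 and 5.07 and then 4.97 and 5.09 (0.13, adjusted p = 0.81), and Myo7a read 6.11 and 5.83 and then 5.32 and 5.68 (-0.47, adjusted p = 0.56). None was called. The mean of these 4 genes was 5.50 to 5.80 on the control EB arrays against group means of 10.3 to 10.7 in the iHC groups, and the mean of the hair cell list 4.61 to 4.81 against 7.22 to 7.86. In the iHC groups the means of the 3 induced factors ran from 10.93 to 11.43 and those of Myo7a from 7.95 to 8.97. Probes for Gfi1, Pou4f3 and Atoh1 may read transgene and endogenous transcripts alike.

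Over the same days, most genes called in control EBs were not called in sorted cells, although their differences leaned the same way there. In Dox iHCs 1785 genes changed between day 8 and day 12 (8.05% of those tested) and in Dox+RA iHCs 972 (4.38%); these comparisons use no control EB array. Of the 516 genes that rose in control EBs, 39 also rose in Dox iHCs, which is 7.56% of the 516 and 5.19% of the 751 that rose there, and 20 fell there. Of the 315 that fell in control EBs, 43 also fell in Dox iHCs, 13.7% of the 315 and 4.16% of the 1034 that fell there, and 5 rose there. The shares with Dox+RA iHCs were 29 of the 516 (5.62%; 7.36% of 394) and 23 of the 315 (7.30%; 3.98% of 578); 15 and 4 genes changed there in the opposite direction. The count in Dox iHCs was 644 without day 12 replicate 1, 705 without day 8 replicate 2, 784 without day 8 replicate 3 and 982 without day 12 replicate 2 of that treatment. In Dox+RA iHCs it was 419, 364, 297 and 574 without day 12 replicate 1, day 8 replicate 2, day 12 replicate 2 and day 8 replicate 3. With the replicate number as a block the counts were 3139 and 2010. The median difference in Dox iHCs was 0.03 for the genes that rose in control EBs and -0.11 for those that fell. For comparison, 751 of all 22180 genes rose in Dox iHCs and 1034 fell, and in Dox+RA iHCs 394 rose and 578 fell. In Dox iHCs 58.1% of the 516 had a positive difference (52.3% of all genes) and 70.2% of the 315 a negative one (47.7%). In Dox+RA iHCs the shares were 63.8% (57.0%) and 62.5% (43.0%).

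The difference between the time changes was tested as an interaction. The change in Dox iHCs differed from that in control EBs for 630 genes (2.84%), and that in Dox+RA iHCs for 582 genes (2.62%). Both interactions use the same 4 control EB arrays. Without day 8 replicate 2 of the control EBs the counts were 266 and 268, without day 12 replicate 1 they were 291 and 272, and without day 12 replicate 2 the first was 396. Leaving out Dox day 8 replicate 2 gave 414 for the first and Dox day 12 replicate 3 gave 1068, and leaving out Dox+RA day 12 replicate 2 gave 378 for the second. With the replicate number as a block the counts were 1430 and 1150. For red cell genes the change was called less negative in Dox iHCs for 8 of 16 and in Dox+RA iHCs for 7 of 16. For mesenchymal genes it was less positive for 15 of 39 and 11 of 39. In absolute level, the red cell list mean of control EBs at day 12 (5.39) stood beside 5.46 and 5.49 in the day 8 iHC groups, while the mesenchyme list was at 7.73 in control EBs at day 12 and between 4.77 and 5.13 in all iHC groups.

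**Figure D5:**
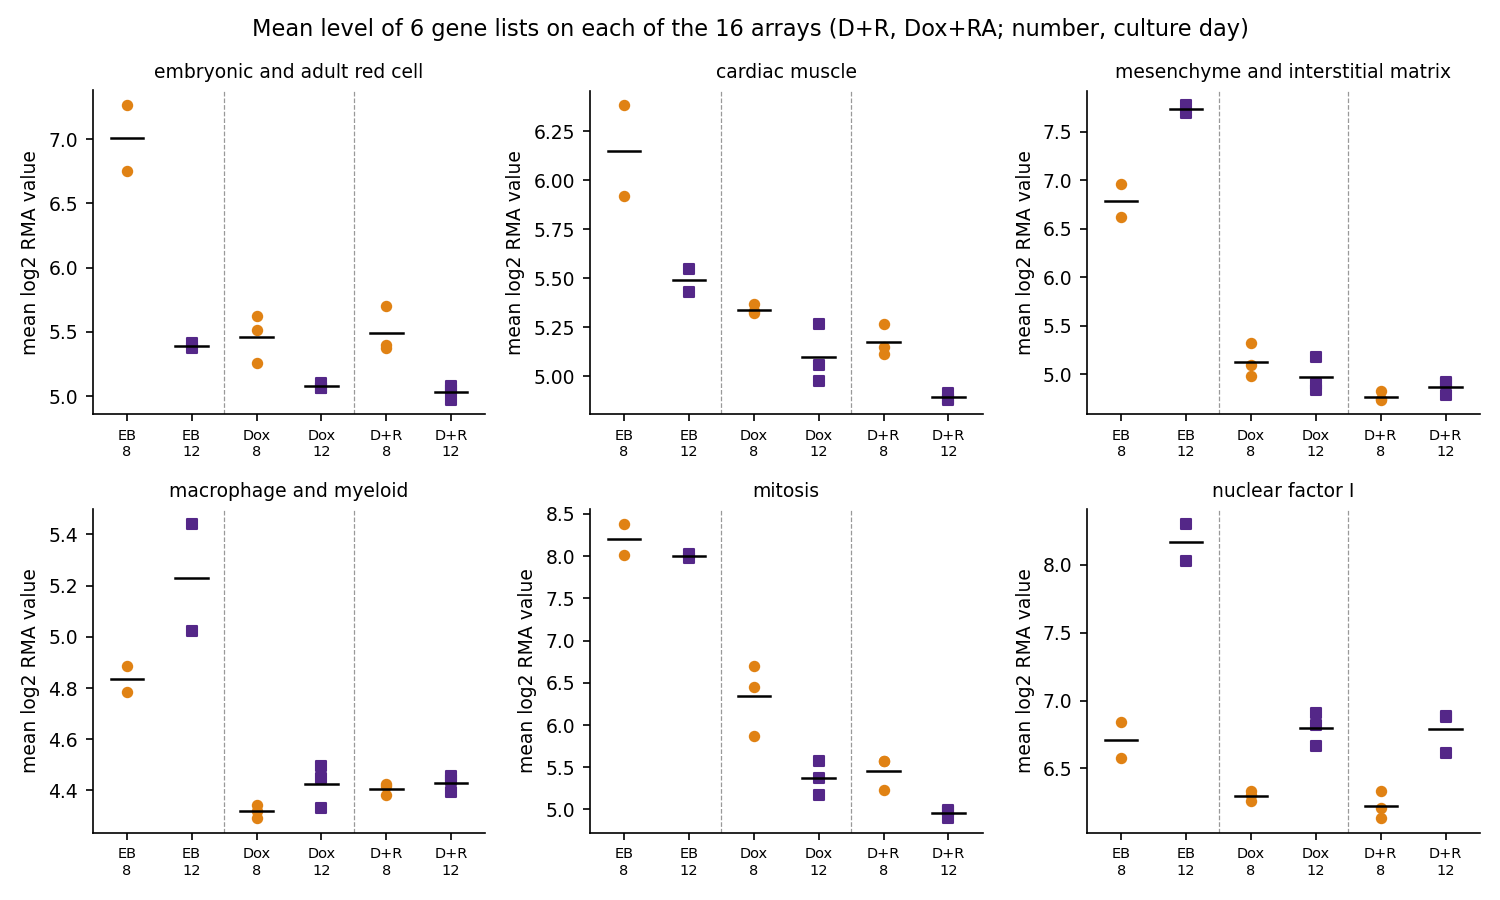
Mean log2 RMA value of the genes of 6 lists on each of the 16 arrays, by group and culture day, with a bar at the group mean. The red cell and cardiac lists fell in control EBs, the mesenchyme and macrophage lists rose, and the mitosis list stayed near 8 in control EBs while it was lower at day 12 than at day 8 in sorted cells.

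For some lists and genes the time changes are set side by side here. Of the 28 mitosis genes 25 fell in Dox iHCs (median -1.01) and 5 in Dox+RA iHCs (median -0.50), against 0 in control EBs. Yet the difference between the time changes was called for 1 of the 28 in Dox iHCs and for 0 in Dox+RA iHCs. These counts are from the fit without a replicate block, which called fewer genes than the fit with it. Nefl rose by 1.56 in control EBs and fell by 1.71 in Dox iHCs and by 2.62 in Dox+RA iHCs, and both differences were called (adjusted p = 0.0019 and 0.00028). Hbb-bh1 fell in all 3 settings, by 2.43, 0.76 and 0.79. Hbb-y, which fell by 2.62 in control EBs, was called in neither Dox iHCs (0.00) nor Dox+RA iHCs (-0.41). The nuclear factor I genes Nfix and Nfic rose in all 3 settings: Nfix by 1.48, 0.61 and 0.59, and Nfic by 0.99, 0.82 and 0.67.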

How the data were processed

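Total RNA was hybridised to 16 Affymetrix Mouse Gene 2.1 ST arrays. Per the submitters' processing notes, the authors made the deposited log2 values with RMA in Affymetrix Expression Console, which corrects background, quantile normalizes all arrays and sums probes into 1 value per transcript cluster. For the software version and the genome build, the sources used here give nothing. The values were used as deposited. Of 33708 table entries, 23521 carried 1 gene symbol, and the entry with the highest mean stood for a gene with several, which left 22180 genes. RMA draws arrays towards a common distribution, so a shift shared by most genes would not show, and differences of dim genes are compressed.

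The linear models of limma (version 3.58.1, in R 4.3.3) held 1 mean per group for the 6 groups, took in all 16 arrays and moderated the variances, and p-values were adjusted by Benjamini-Hochberg over all 22180 genes with a threshold of 0.05. The contrasts were day 12 minus day 8 in control EBs, in Dox iHCs and in Dox+RA iHCs, and the iHC changes minus that of control EBs. The script was tested on simulated data. Replicate numbers paired the iHC samples by their data: over 6 comparisons between iHC groups, each with 3 pairs, deviations from the group means correlated at 0.15 to 0.51 for the same number and at -0.41 to 0.20 for different numbers. The 2 pairs of control EBs (0.179) are too few for this check. The main fit did not use the pairing of the iHC samples. The number of arrays limits the precision. The sources used here name no strip, scan date or extraction batch, so a difference between batches of the days cannot be told apart from time.

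Genes named are the induced factors and the reporter gene, the 25 largest called rises and falls whose arrays do not overlap, and up to 6 called members of each of 37 lists (the 3 of highest level where fewer than 2 were called). Predicted genes and microRNAs were passed over by that rule; others named were chosen after their values were seen, as were 11 further lists. The members and lists were chosen with earlier results of these data known, and no list was given a set test. Alternatives were another choice of arrays in the fit, a replicate block, other moderation, array weights, a filter on dim genes, renormalization, another rule for entries, a stricter threshold, a fold rule and leaving out each array.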

Additional observations from a re-analysis of the deposited data

Results flagged for a closer look

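The time change differed between sorted cells and control EBs by limma's test of the interaction for 630 genes with Dox iHCs and for 582 with Dox+RA iHCs, each at an adjusted p under 0.05. Among the leading genes of control EBs, the change in Dox iHCs minus that in control EBs was -4.65 for Rxfp2 (adjusted p = 6.4e-06), -4.07 for Alb (5.2e-07), -3.27 for Lox (0.0002), -2.32 for Angptl7 (0.00016) and -2.91 for Slitrk6 (5.3e-05), all on the log2 scale. For leading falls it was 2.19 for Kel (0.012), 2.40 for Hsd3b6 (0.0079), 2.97 for Grap2 (6.4e-05) and 1.89 for Pkhd1l1 (0.0023). For Slc4a1, the largest fall, it was 2.18 (0.052) and did not pass. All of these genes were picked for a large change in control EBs, which the interaction subtracts. The choice of genes thus favoured interactions of the opposite sign and small p, and their p-values are not independent support. The control EBs were whole and unsorted while the iHCs were sorted for mVenus, so treatment and sorting cannot be told apart in these differences. Groups of 2 and 3 arrays are too small to test an array as an outlier.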

How the results depend on the processing

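Of the 121 called genes named by the rule, all kept their direction and 63 also kept their call under every alternative run for them. The count of 831 genes called in control EBs stayed between 802 and 937 with other moderation, array weights, dim genes left out, renormalization, median centring, the mean of entries or all entries. It was 553 with only control EB arrays in the fit, 408 at an adjusted p under 0.01 and 347 by the rule of no overlap and at least 2-fold with no test. Leaving out 1 array gave 317 to 951 for control EBs, 644 to 2598 for Dox iHCs, 297 to 998 for Dox+RA iHCs, and 266 to 1068 and 268 to 686 for the interactions with Dox and Dox+RA; the lone array left in a control group is then assumed to vary like the other groups. With the replicate number as a block in the fit of all arrays the counts were 1255, 3139, 2010, 1430 and 1150 in the same order, and 1124 for control EBs alone. The correlation of same-numbered deviations was 0.179 in the control EBs, whose 2 pairs are too few to settle whether the numbers pair them. In the fit of control EB arrays alone, list counts that moved by over 1.5 times from those in the report included 14 falls of endothelial genes (8 in the report), 8 of cholesterol genes (14), 4 of haem and iron genes (7), 2 of pluripotency genes (5) and 3 rises each of macrophage and of BMP and TGF-beta genes (6 each); neuronal and trophoblast genes held 1 rise each. Array signal compresses low values, and 2 arrays a day leave the spread of single genes poorly known. The cause of these shifts was not tested.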
